A study of Mus musculus with 8 samples.

Results

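The immediate early and heat shock genes examined here are 10 genes, *Fos*, *Fosb*, *Jun*, *Junb*, *Egr1*, *Atf3*, *Ier2*, *Dusp1*, *Hspa1a* and *Hspa1b*, out of 13028 genes listed for the crypts or the villi of the mouse small intestine. They were taken by symbol, as genes whose RNA rises within minutes of tissue handling and acute stress. The rule uses no value of these libraries, but the set was proposed with earlier results of these data known. All 10 were listed in both tissues, among 11554 genes in the crypt table and 12701 in the villus table. RNA was sequenced from crypts and from villi of C57BL/6 background mice in 2 groups, with 2 labelled replicates per group and tissue. *Gli1-PtgscKO* mice carried *Gli1-CreERT2* with floxed alleles of *Ptgs1* (COX1) and *Ptgs2* (COX2), so that tamoxifen removed both enzymes in Gli1+ mesenchymal cells and not in the epithelium that was sequenced. The labels call the control (Ctrl) mice WT and name *Gli1-CreERT2; Rosa26-tdTomato* mice as the other source of cells, whereas the study's legend for the same comparison gives floxed mice without Cre. The allele that the Ctrl libraries carry is therefore not settled by these sources. Tamoxifen was given on consecutive days, and the study's account of the crypts concerns mice a month after Cre induction. Age, sex and any pooling of mice are not given for these libraries. Biological replicates are stated in the methods, and nothing in the labels ties a crypt library to a villus library of the same mouse.

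Immediate early genes are switched on by growth factors, mechanical stress, cyclic AMP and injury without new protein synthesis, through factors such as SRF and CREB that are already bound or poised at their promoters. *Fos*, *Fosb*, *Jun* and *Junb* encode subunits of the transcription factor AP-1, *Egr1* a zinc finger transcription factor, *Atf3* a stress-induced bZIP factor and *Ier2* a nuclear protein of the same first wave. *Dusp1* encodes a phosphatase that switches off the MAP kinases which induced it. *Hspa1a* and *Hspa1b* encode the stress-inducible HSP70 chaperones and are driven by heat shock factor 1, which answers to unfolded protein. Isolating intestinal epithelium involves chelation, shaking and time outside the animal, and these genes are widely known to respond to such steps.

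Sequenced reads on the listed genes numbered between 16853017 and 21121714 in the 4 crypt libraries and between 13477600 and 15751024 in the villus libraries. The deposited values are normalized counts, the reads of a gene divided by a size factor of its library. The labelled Ctrl villus replicates hold identical values for every gene and were counted as 1 library, leaving 7 distinct libraries. All 8 epithelial markers were listed in both tissues, and the 8 crypt stem cell markers together took 5041 to 5735 CPM in the crypts against 173.3 to 415.3 in the villi. CPM are reads scaled to a library total, which for summed markers is the total on all genes listed for that tissue and for the 10 genes the total on the genes listed in both tissues. *Gli1-PtgscKO* crypt replicate 1 stood apart from the other crypt libraries. It was the highest of the 4 for 39.2% of the genes and the lowest for 38.6%, and its values fell with transcript length (Spearman correlation -0.673 across genes, which are not independent replicates). *Ptgs1*, deleted in mesenchymal cells only, stood at 365.5 and 163.8 normalized counts for Ctrl and 178.4 and 198.9 for *Gli1-PtgscKO* crypts, and *Ptgs2* and *Gli1* were not listed, so the targeted genes could not check the labels in this epithelium. In bulk RNA, fewer cells of a type and less RNA per cell cannot be told apart.

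The stretches upstream of the transcription start sites are shown for 6 of the genes because promoters of this kind hold the short elements through which the genes respond, and because the 2 HSP70 promoters are nearly the same. The bases come from RefSeq on GRCm38.p6, and windows were taken for 8 of the 10 genes only. The bases run 5′ to 3′ on the strand of the gene, from 250 bases before the start site to the base before it. Where the first annotated exon comes earlier, they end at the base before that exon. Capitals mark matches, on either strand, to 7 motifs: the cyclic AMP response element TGACGTCA and its half-site TGACG, the AP-1 element TGANTCA, a heat shock element core GAANNTTC, the TATA box TATAAA, the CCAAT box CCAAT, and the CArG box bound by SRF. The full cyclic AMP element contains its own half-site, on both strands. The stretches lie at chr12:85473640-85473889 (plus strand) for *Fos*, chr4:95052223-95052472 for *Jun*, chr8:84978749-84978998 for *Junb*, chr17:26508520-26508722 for *Dusp1*, chr17:34972157-34972406 for *Hspa1a* and chr17:34959239-34959488 for *Hspa1b*, all but the first on the minus strand.
Fos promoter: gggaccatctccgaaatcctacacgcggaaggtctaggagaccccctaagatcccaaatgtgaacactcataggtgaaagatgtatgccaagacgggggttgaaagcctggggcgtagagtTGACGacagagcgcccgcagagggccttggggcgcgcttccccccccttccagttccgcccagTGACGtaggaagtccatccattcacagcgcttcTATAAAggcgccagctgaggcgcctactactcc
Jun promoter: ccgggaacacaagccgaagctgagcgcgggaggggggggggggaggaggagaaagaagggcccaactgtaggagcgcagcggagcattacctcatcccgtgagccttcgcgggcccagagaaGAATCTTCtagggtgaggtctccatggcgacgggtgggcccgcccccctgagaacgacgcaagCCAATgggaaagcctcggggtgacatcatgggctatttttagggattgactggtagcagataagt
Junb promoter: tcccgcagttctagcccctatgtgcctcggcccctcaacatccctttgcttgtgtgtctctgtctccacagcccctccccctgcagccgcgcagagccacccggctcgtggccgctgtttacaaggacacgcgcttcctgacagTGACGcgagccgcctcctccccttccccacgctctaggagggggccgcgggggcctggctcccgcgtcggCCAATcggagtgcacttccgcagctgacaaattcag
Dusp1 promoter: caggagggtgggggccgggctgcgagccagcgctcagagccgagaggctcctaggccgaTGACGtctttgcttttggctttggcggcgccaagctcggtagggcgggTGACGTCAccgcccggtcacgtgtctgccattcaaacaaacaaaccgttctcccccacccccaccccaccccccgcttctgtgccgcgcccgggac
Hspa1a promoter: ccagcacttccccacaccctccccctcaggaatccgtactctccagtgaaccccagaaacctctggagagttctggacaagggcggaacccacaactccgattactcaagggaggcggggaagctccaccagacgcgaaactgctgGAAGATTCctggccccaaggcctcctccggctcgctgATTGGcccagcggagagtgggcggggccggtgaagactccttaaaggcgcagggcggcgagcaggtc
Hspa1b promoter: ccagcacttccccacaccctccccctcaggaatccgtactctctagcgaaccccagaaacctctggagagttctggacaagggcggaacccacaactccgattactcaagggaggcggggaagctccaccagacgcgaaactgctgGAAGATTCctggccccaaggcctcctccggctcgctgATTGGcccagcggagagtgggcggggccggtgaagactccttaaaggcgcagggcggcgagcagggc

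*Fos* held half-sites from 129 and from 66 bases before its start and a TATA box from 33 bases before it. *Dusp1* was the only 1 of the 8 windows with the full cyclic AMP element, from 143 bases before the start. A half-site was present in 5 of the 8 windows, and in 17.8% of the 32851 windows of the same 250 bases over all genes. *Hspa1a* and *Hspa1b* both held a heat shock element core from 104 bases before the start, and with *Jun*, where the core lay from 128 bases before it, 3 of the 8 windows held one, against 6.69% of all windows. CCAAT boxes were in 4 of the 8 windows and in 33.8% of all. TATA boxes were in 1 of the 8 and in 12.4% of all, and the full cyclic AMP element in 1 and in 1.55%. The AP-1 element and the CArG box were in none of the 8, which leave out *Egr1* and *Ier2*, against 6.75% and 1.47% of all windows. These matches describe letters and are not binding sites shown to be in use, and the absence of a match says only that the letters are not in this window.

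**Figure D1:**
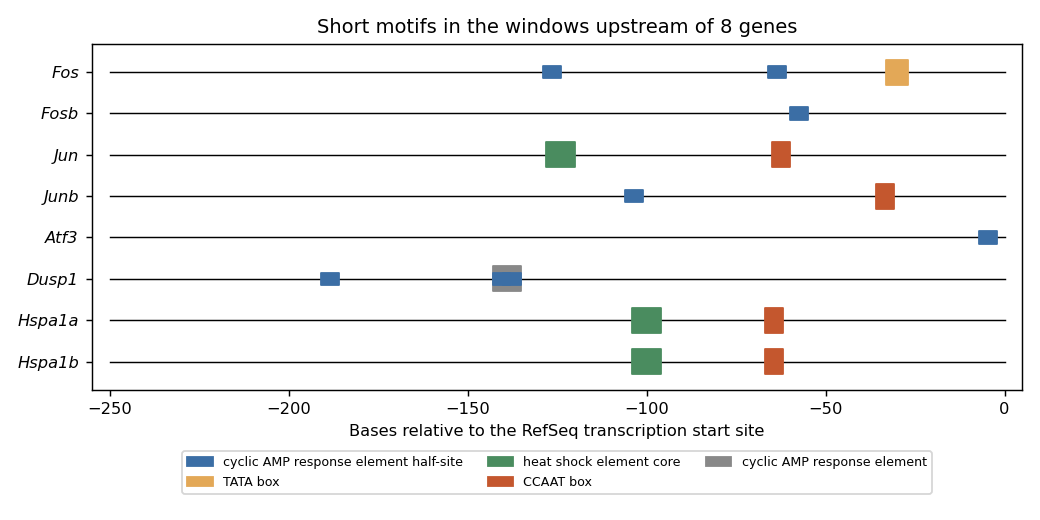
Positions of the motif matches in the 250 bases upstream of 8 genes, one line per gene, with the distance in bases from the RefSeq transcription start site on the x axis and 1 colour per motif. The 2 HSP70 genes carry the heat shock element core and the CCAAT box at the same distances, and *Dusp1* alone carries the full cyclic AMP element.

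The 2 HSP70 genes differ at 3 of the 250 promoter bases compared, and at 36 of 1926 coding bases compared position by position from the start codon, an identity of 98.1%. The longest identical coding run is 638 bases. The first 150 coding bases, the same in both genes, are shown because a read within them, taken without its mate, cannot be assigned to either. They lie on the minus strand of GRCm38 at chr17:34971776-34971925 in *Hspa1a* and chr17:34958858-34959007 in *Hspa1b*.
HSP70 coding start: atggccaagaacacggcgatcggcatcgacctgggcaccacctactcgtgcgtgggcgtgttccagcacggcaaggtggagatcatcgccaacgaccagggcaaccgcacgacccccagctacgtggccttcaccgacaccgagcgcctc

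Of the 150-base windows of the annotated transcripts, 38.1% of those of *Hspa1a* and 40.5% of those of *Hspa1b* occur unchanged in the other gene, 1074 windows in all. The methods name paired reads, and mates were not considered in these shares. How the authors' counting treated reads that fit both genes is not stated, so the split between *Hspa1a* and *Hspa1b* is uncertain in every library. *Hspa1b* had 3.87 to 6.68 times as many reads as *Hspa1a* in the crypts and 7.59 to 8.64 times in the villi. Strand use in the counting is also not given. By annotated gene spans, introns included, *Junb* overlaps *Prdx2* by 351 bases and *Dusp1* overlaps *Ergic1* by 640 bases, both on the opposite strand. On its own strand *Dusp1* overlaps *AC122252.1* by 1853 bases and *AC122252.4* by 227 bases, neither of them listed. Reads of these pairs may not be fully separated, but whether the overlaps lie in exons was not examined.

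In the crypts, the 10 genes differed between libraries of 1 genotype, and none of them was separated by genotype. All 10 were higher in replicate 1 than in replicate 2 both in Ctrl and in *Gli1-PtgscKO* crypts, a pattern shown by 30.7% of the 11554 listed genes. In Ctrl crypts 8 of the 10 were over 2-fold higher in replicate 1, against 2.48% of all genes, and in *Gli1-PtgscKO* crypts 5 of the 10, against 9.43%. No gene of the 10 had both *Gli1-PtgscKO* libraries above or below both Ctrl libraries, whereas 21.0% of all genes had them on 1 side, and none of the 10 passed the test between genotypes.

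*Fos*, on chromosome 12 from 85473890 to 85477273, had 8248 and 3385 normalized counts in Ctrl crypt replicates 1 and 2, and 8653 and 3979 in *Gli1-PtgscKO* replicates 1 and 2. Both replicates 1 lay near each other and more than 2-fold above both replicates 2, and the genotypes overlapped. The 95% interval of the log2 fold change of *Fos* between genotypes, 0.15 with a standard error of 0.52, ran from -1.09 to 1.39 by limma-trend.

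*Fosb*, the other Fos protein of the set, on chromosome 7 from 19302696 to 19310051, had 2570 and 562.6 in the Ctrl crypts, the widest gap of the 10 genes there at 4.57-fold. Its *Gli1-PtgscKO* values were 1241 and 1178, which lay between the Ctrl values and differed by 1.05-fold only. The fitted log2 fold change of 0.01 (standard error 0.64) thus came from Ctrl libraries on either side of the *Gli1-PtgscKO* pair.

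For *Jun*, the principal partner of Fos proteins in AP-1, on chromosome 4 from 95049034 to 95052222, the Ctrl crypts gave 4787 and 2151 and the *Gli1-PtgscKO* crypts 4151 and 2561. The order was that of *Fos*, with both replicates 1 above both replicates 2. Reads of *Fos* per read of *Jun* stayed between 1.55 and 2.08 in the 4 crypt libraries. Its log2 fold change between genotypes was 0.02 (standard error 0.43).

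*Junb*, an AP-1 subunit that can oppose *Jun*, on chromosome 8 from 84974484 to 84978718, had 2189 and 1519 in Ctrl crypts and 4354 and 1945 in *Gli1-PtgscKO* crypts. *Gli1-PtgscKO* replicate 1 was the highest, and replicate 2 lay between the Ctrl values. The log2 fold change of 0.67 (standard error 0.42) had an unadjusted limma-trend p of 0.150, the smallest of the 10.

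*Egr1*, on chromosome 18 from 34859823 to 34864984, had 6297 and 2548 in Ctrl crypts and 4374 and 2785 in *Gli1-PtgscKO* crypts, with both replicates 1 above both replicates 2. Its log2 fold change was -0.20 (standard error 0.46). *Atf3*, on chromosome 1 from 191170296 to 191218039, was lower in level, with 400.1 and 109.8 in Ctrl and 284.3 and 130.7 in *Gli1-PtgscKO* crypts, and showed the same order. *Ier2*, on chromosome 8 from 84661331 to 84662852, had 3941 and 2571 in Ctrl and 7497 and 2477 in *Gli1-PtgscKO* crypts. As for *Junb*, *Gli1-PtgscKO* replicate 1 was the highest *Ier2* library. *Gli1-PtgscKO* replicate 2 lay below both Ctrl libraries for *Ier2*, whereas for *Junb* it lay between them.

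The feedback phosphatase *Dusp1*, on chromosome 17 from 26505590 to 26562128, had 892.1 and 223.2 in Ctrl crypts and 860.3 and 344.2 in *Gli1-PtgscKO* crypts, log2 differences of 1.99 and 1.32. It followed the same order as *Fos* and *Jun*, which act downstream of the kinases that the phosphatase inactivates. The fold change between genotypes was 0.29 on the log2 scale with a 95% interval from -1.39 to 1.96, the widest interval of the 10.

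*Hspa1a*, on chromosome 17 from 34969190 to 34972156, had 188.3 and 50.4 in Ctrl crypts and 98.6 and 86.0 in *Gli1-PtgscKO* crypts. *Hspa1b*, next to it from 34956436 to 34959238, had 775.9 and 336.7 in Ctrl and 381.9 and 334.1 in *Gli1-PtgscKO* crypts. For both chaperone genes Ctrl replicate 1 stood above the other 3 libraries, and the *Gli1-PtgscKO* replicates differed by only 0.19 on the log2 scale. The log2 fold changes between genotypes were -0.08 (standard error 0.67) for *Hspa1a* and -0.52 (standard error 0.43) for *Hspa1b*.

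**Figure D2:**
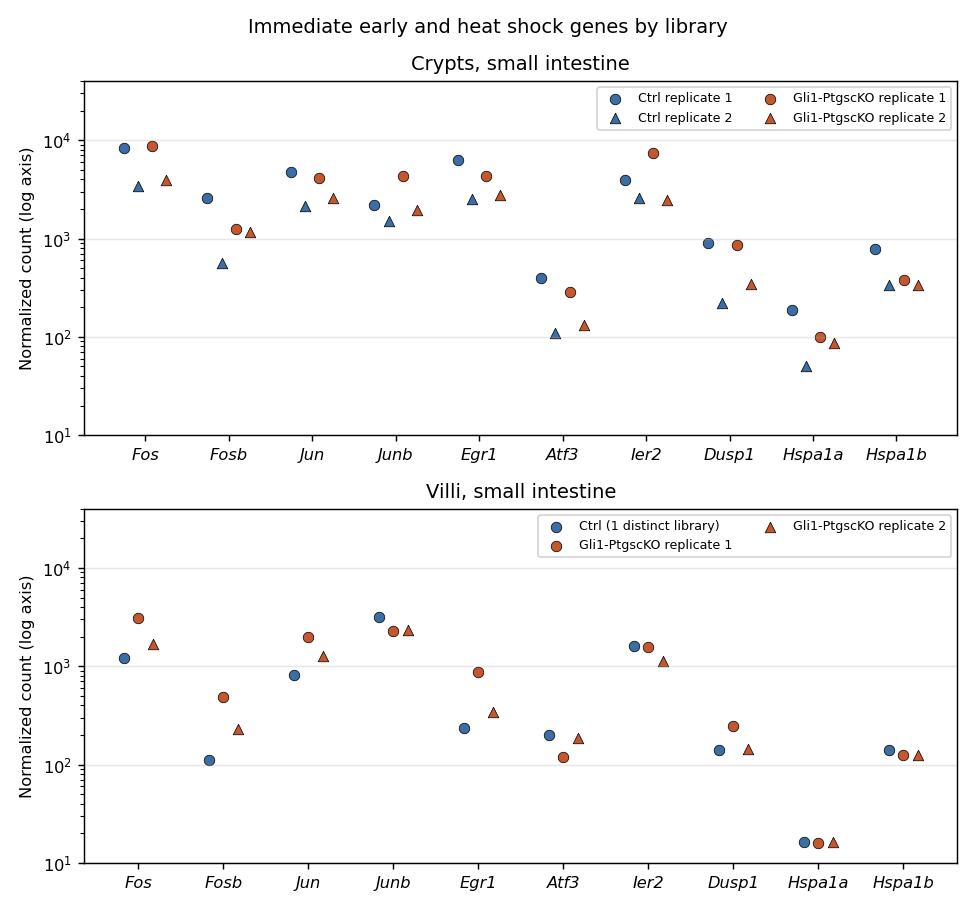
Normalized counts of the 10 genes in each library, on a log axis, with crypts above and villi below; colours give the genotype, circles replicate 1 and triangles replicate 2. In the crypts every circle lies above the triangle of its colour, and the Ctrl and *Gli1-PtgscKO* points overlap for all 10 genes.

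Across the set, Ctrl crypt replicate 1 was the highest of the 4 crypt libraries for 7 of the 10 genes and *Gli1-PtgscKO* replicate 1 for the other 3, *Fos*, *Junb* and *Ier2*. Ctrl replicate 2 was the lowest for 8 and *Gli1-PtgscKO* replicate 2 for *Ier2* and *Hspa1b*. Over all genes, Ctrl replicate 1 was the highest for 17.9% and Ctrl replicate 2 the lowest for 15.9%. Over the genes listed in both tissues, the 10 genes together took 1653 and 708.7 CPM in Ctrl crypts and 1558 and 841.8 in the *Gli1-PtgscKO* crypts, a sum made mostly by the 8 immediate early genes.

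Taken without sign, replicates differed by a median of 1.30 on the log2 scale for the 10 genes in Ctrl crypts, against 0.19 for all genes, and 0.91 in *Gli1-PtgscKO* crypts, against 0.50. In 9 of the 10 genes the difference between the Ctrl replicates was larger than the fold change between genotypes, *Junb* being the exception. A difference between 2 single libraries varies more than one between means of 2 libraries. The share of all genes was not counted, so this count does not set the 10 genes apart. Transcript length moved with the *Gli1-PtgscKO* difference. After values were corrected for length in each library, the median stayed at 1.30 in Ctrl crypts and was 0.63 in *Gli1-PtgscKO* crypts, and 9 of the 10 genes were higher in replicate 1 in both genotypes, against 28.5% of all genes, with *Hspa1b* level in *Gli1-PtgscKO*. The number over 2-fold higher in replicate 1 was still 8 of the 10 in Ctrl crypts, against 2.55% of all genes, but went from 5 to 0 of the 10 in *Gli1-PtgscKO* crypts, against 3.2%. With scaling by library size alone the count was also 9 of 10, *Fosb* being the exception in *Gli1-PtgscKO* crypts. Whether replicate 1 and replicate 2 differed in collection, handling time or day is not given in the sources used here, and the part of handling in the difference was not tested.

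**Figure D3:**
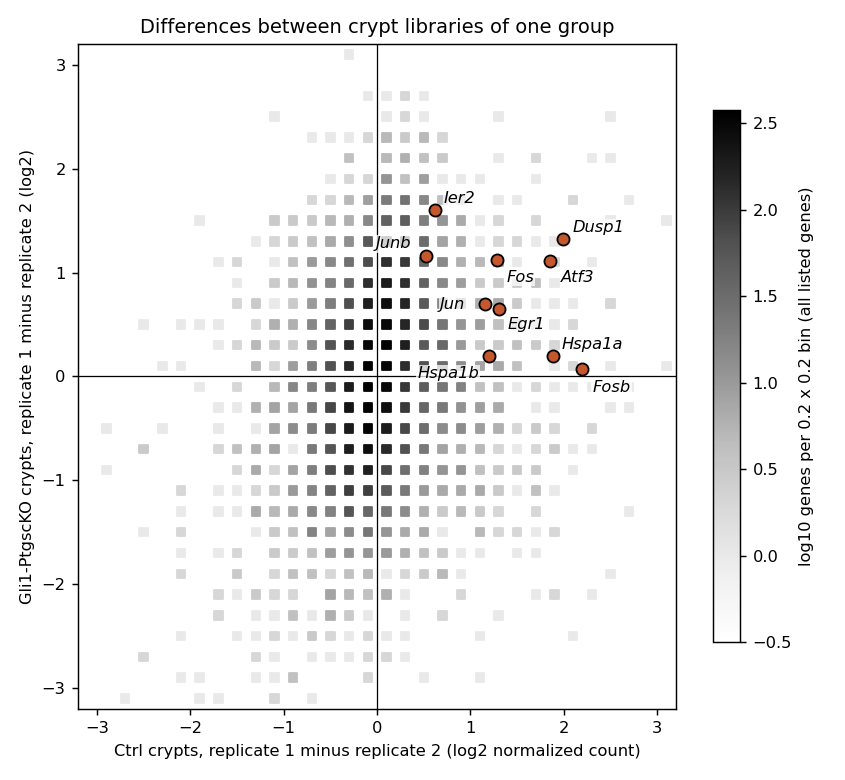
Difference between replicate 1 and replicate 2 on the log2 scale in Ctrl crypts (x axis) and in *Gli1-PtgscKO* crypts (y axis); orange points are the 10 genes, grey squares the number of listed genes in each bin on a log10 scale, and genes beyond the axes are not drawn. All 10 genes lie to the right of and above 0, from 0.53 to 2.19 in Ctrl and from 0.08 to 1.60 in *Gli1-PtgscKO* crypts.

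Between genotypes, 0 of the 10 genes passed the study's threshold of an unadjusted p under 0.01 with an absolute log2 fold change over 1, which 21 of 11554 genes (0.182%) passed by limma-trend. At an unadjusted p under 0.05 the count was 0 of 10 as well, against 0.632% of all genes. Adjusted p-values over all genes were 1.00 for each of the 10, and no gene of the table had an adjusted p under 0.05. edgeR and DESeq2 on the recovered reads also called 0 of the 10. The 95% intervals reached past a 2-fold change in at least 1 direction for all 10 genes, so a change of that size was not excluded with 2 libraries a group. Without *Gli1-PtgscKO* replicate 2, *Junb* (log2 fold change 1.26, limma-trend adjusted p = 0.0119) and *Ier2* (1.24, adjusted p = 0.0152) passed the threshold, in a fit in which the number of genes called went from 21 to 881.

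**Figure D4:**
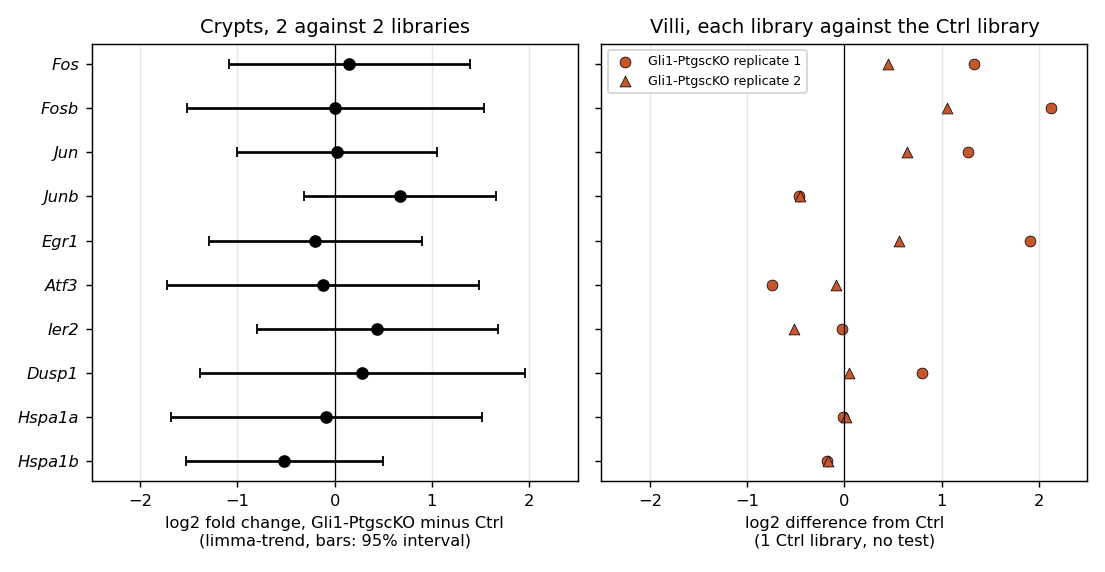
Differences between *Gli1-PtgscKO* and Ctrl on the log2 scale, with the limma-trend estimate and its 95% interval in crypts on the left and each *Gli1-PtgscKO* villus library minus the single Ctrl villus library on the right. In crypts all 10 intervals include 0, and in villi *Fos*, *Fosb*, *Jun*, *Egr1* and *Dusp1* have both libraries above 0.

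Other genes of the same programme were followed in lists matched by symbol. Of 20 further immediate early transcription factors, 16 were listed in the crypts, of which 0 passed the threshold between genotypes, and their median log2 fold change was 0.25 against -0.01 for all genes. The largest changes in the list were 0.88 for *Cebpb* (standard error 0.58), 0.74 for *Cebpd* (0.33) and 0.60 for *Csrnp1* (0.57). Replicate 1 was the higher in both genotypes for 10 of the 16 and the lower for 3, against 3545 and 3659 of all 11554 genes. *Nr4a1*, an orphan nuclear receptor of the first wave, is named here after its values were seen. It had 244.6 and 69.3 in Ctrl and 225.6 and 139.7 in *Gli1-PtgscKO* crypts.

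Of 32 further regulators and feedback inhibitors, 27 were listed, 0 passed and the median was 0.11. *Dusp4*, another MAP kinase phosphatase, had the largest fold change at 0.71 (standard error 0.62), with *Sgk1*, a kinase induced by glucocorticoids and osmotic stress, at 0.56 (0.47) and *Gadd45g*, a growth arrest gene, at 0.52 (0.42). *Dusp4* ran opposite to *Dusp1* between replicates, with 62.8 and 153.0 in Ctrl crypts. Replicate 1 was the higher in both genotypes for 17 of the 27 genes and the lower for 5, against 3545 and 3659 of all 11554 genes.

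Of 24 further heat shock genes and chaperones, 21 were listed, 0 passed and the median was -0.04. *Fkbp4*, a co-chaperone of HSP90, was at 0.34 (standard error 0.31), *Serpinh1*, the collagen chaperone, at 0.29 (0.36) and *Hspb8*, a small heat shock protein, at 0.29 (0.66). The constitutive HSP70 *Hspa8*, named for contrast after its values were seen, had 32484 and 34003 normalized counts in Ctrl and 35305 and 31693 in *Gli1-PtgscKO* crypts, with a log2 fold change of 0.01. The small heat shock protein genes *Hspb1* and *Cryab*, also named after their values were seen, were higher in replicate 1, *Hspb1* at 486.3 and 142.2 in Ctrl and 265.4 and 186.6 in *Gli1-PtgscKO* crypts. *Cryab* had 118.1 and 41.4 in Ctrl and 103.9 and 44.7 in *Gli1-PtgscKO* crypts. Replicate 1 was the higher in both genotypes for 14 of the 21 and the lower for 2, against 3545 and 3659 of all 11554 genes. The list's median difference, replicate 1 minus replicate 2, was 0.14 in Ctrl and 0.17 in *Gli1-PtgscKO* crypts on the log2 scale. Of 28 receptors, kinases and factors upstream of these genes, 25 were listed and 0 passed, with a median of -0.15. *Elk1*, a ternary complex factor that binds with SRF, was at 1.00 (standard error 0.51), *Mrtfb*, an SRF coactivator, at -0.43 (0.44) and *Hras* at 0.42 (0.45). Only 5 of these 25 were higher in replicate 1 in both genotypes, and 14 were lower, against 3545 and 3659 of all 11554 genes.

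Markers of other cells and RNA composition were set beside the difference between replicates. The 10 listed mesenchymal markers of 11 took 1011 and 509.3 CPM in Ctrl crypts and 567.3 and 840.7 in the *Gli1-PtgscKO* crypts, so they went with the 10 genes in Ctrl and against them in *Gli1-PtgscKO*. Of the 12 immune markers, all listed, 1 was higher and 7 were lower in replicate 1 in both genotypes, against 3545 and 3659 of all 11554 genes. Their sum ran the other way, at 747.1 and 314.2 CPM in Ctrl and 468.5 and 410.3 in *Gli1-PtgscKO* crypts, and was carried by *Cd74*, the MHC class II invariant chain, named after its values were seen, which had 10229 and 1929 normalized counts in Ctrl and 6554 and 2248 in *Gli1-PtgscKO* crypts. The 3 listed nuclear retained RNAs of 4 took 174.6 and 77.0 CPM in Ctrl and 73.6 and 131.5 in *Gli1-PtgscKO* crypts, so their direction was that of the 10 genes in Ctrl only. The 11 villus enterocyte markers, all listed, took 5527 and 7719 CPM in Ctrl and 5952 and 6968 in *Gli1-PtgscKO* crypts, lower in replicate 1 in both, with 7 of the 11 individually lower there in both genotypes and 1 higher. Only 1 of 7 smooth muscle markers and 1 of 6 endothelial markers were listed in the crypts. Messenger RNAs of the mitochondrial genome, 11 listed of 13, took 65307 and 88248 CPM in Ctrl and 26147 and 113145 in *Gli1-PtgscKO* crypts, lower in replicate 1 in both, and 10 of the 11 were individually lower there. The part of these in the difference was not tested.

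In the villi, *Fos*, *Fosb*, *Jun*, *Egr1* and *Dusp1* were higher in both *Gli1-PtgscKO* libraries than in the single distinct Ctrl library, and *Junb*, *Atf3*, *Ier2* and *Hspa1b* were lower in both. Of all 12701 genes, 43.7% had both libraries above the Ctrl library and 44.2% both below it. With 1 Ctrl library there is no test, and genotype and individual library cannot be told apart. A mean log2 difference over 1 with both libraries on the same side was found for *Fosb* and *Egr1*, 2 of the 10, against 13.4% of the 12701 genes higher by this rule. None of the 10 was lower by it, against 9.40% of all genes.

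*Fos* had 1224 normalized counts in the Ctrl villi and 3095 and 1666 in the *Gli1-PtgscKO* villi, and *Jun* 816.7 against 1976 and 1279. *Fosb* had 110.0 against 484.7 and 229.9, a mean log2 difference of 1.59, and *Egr1* 232.8 against 877.7 and 344.8, a difference of 1.24. For these AP-1 and EGR genes replicate 1 was the highest villus library and replicate 2 was nearer to Ctrl. *Dusp1* had 140.2 in Ctrl and 244.7 and 144.9 in *Gli1-PtgscKO* villi, so replicate 2 was almost level with Ctrl. Without replicate 1, *Fosb* alone remained past the 2-fold mark, and without replicate 2 *Fos* and *Jun* joined *Fosb* and *Egr1*. The share of all genes past the mark was not counted without either replicate.

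*Junb* ran the other way, with 3189 in the Ctrl villi and 2304 and 2322 in the *Gli1-PtgscKO* villi. Reads of *Junb* per read of *Jun* were 3.90 in the Ctrl villi and 1.17 and 1.82 in the *Gli1-PtgscKO* villi, against 0.46 to 1.05 in the crypts. *Atf3* had 200.4 in Ctrl and 119.3 and 188.3, and *Ier2* 1615 and then 1581 and 1129. The chaperone genes were close in the 3 libraries, *Hspa1a* at 16.2, 16.1 and 16.4 normalized counts on 14 to 21 reads, and *Hspa1b* at 140.2, 123.9 and 124.6. Taken without sign, the *Gli1-PtgscKO* villus replicates differed by a median of 0.64 for the 10 genes and 0.19 for all genes, and 6 of the 10 were higher in replicate 1, against 49.5% of all genes.

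The scaling of the villus libraries bears on the small differences. Scaling by library size alone moved the median log2 difference of all genes from -0.01 to 0.42 and turned *Ier2*, *Hspa1b* and *Atf3* to 0.16, 0.26 and 0.01, with *Junb* at -0.03. Relative to that shift *Junb*, *Atf3*, *Ier2*, *Hspa1a* and *Hspa1b* were still at or below the median, and *Fos*, *Fosb*, *Jun*, *Egr1* and *Dusp1* above it. Both *Gli1-PtgscKO* villus libraries rose with transcript length relative to Ctrl (Spearman correlations 0.543 and 0.507 across genes), and after correction for length the 2 genes past the 2-fold mark were *Fosb* at 1.49 and *Fos* at 1.22, with *Egr1* and *Jun* just under it at 0.98 and 0.99 and *Ier2* turned to 0.26. The share of all genes past the mark after this correction was not counted. Immune markers, 12 of 12 listed, took 2064 CPM in the Ctrl villi and 1036 and 1097 in the *Gli1-PtgscKO* villi. Of these markers, with genes named after their values were seen, *Cd74* had 12383 normalized counts against 2843 and 1952 and *Igkc* 5063 against 536.7 and 935.0, whereas *Ptprc*, the pan-leukocyte marker, had 200.4 against 607.8 and 722.5. The 8 crypt stem cell markers took 173.3 CPM in the Ctrl villi and 415.3 and 305.0 in the *Gli1-PtgscKO* villi, and the 2 listed nuclear retained RNAs of 4 took 132.7 against 747.7 and 695.6. Their part in the villus differences was not tested.

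Between tissues, levels were compared as CPM over the 11227 genes listed in both tables. The 4 crypt libraries all lay above the 3 villus libraries for *Egr1*, *Ier2*, *Hspa1a* and *Hspa1b*, 4 of the 10, a share below the 52.3% of all genes that did so on this scale. No test was made, since the tables were normalized separately and tissue was not replicated within mice as far as the labels tell.

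*Egr1* showed the widest gap, with 343.7, 134.2, 213.7 and 148.2 CPM in the crypts (Ctrl 1, Ctrl 2, *Gli1-PtgscKO* 1 and 2) and 13.8, 73.1 and 26.6 in the villi (Ctrl, *Gli1-PtgscKO* 1 and 2). In Ctrl mice its crypt mean was 17.3 times the villus value, and in *Gli1-PtgscKO* mice 3.63 times. *Fosb* followed in Ctrl mice at 13.0 times, but its lowest crypt library, 29.6, lay under the highest villus library, 40.4. *Fos* ranged from 178.3 to 450.2 in the crypts and from 72.7 to 257.9 in the villi, and *Jun* from 113.3 to 261.3 and from 48.5 to 164.7, so both overlapped between tissues.

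*Hspa1a* had 2.66 to 10.3 CPM in the crypts and 0.96 to 1.34 in the villi, and *Hspa1b* 17.7 to 42.4 and 8.32 to 10.3. The separation of *Ier2* was marginal, as its lowest crypt and highest villus libraries both rounded to 131.8. *Junb* was the gene with the lower mean in the crypts, 128.9 against 186.8 in the villi, with overlap. *Atf3* averaged 12.1 in both tissues and *Dusp1* 30.2 against 13.3, both with overlap.

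These folds depend on the scaling. The median gene was 0.79 higher in the crypts on the log2 scale in CPM, and with median-of-ratios size factors this median was 0.01 and 27.6% of all genes had the crypts on top. On that scale *Egr1* at 3.43-fold and *Hspa1a* at 2.70-fold still had all crypt libraries above all villus libraries, *Ier2* and *Hspa1b* no longer did, and *Junb* at 0.39-fold had all crypt libraries below. *Fos*, *Jun*, *Ier2* and *Dusp1* were then within 1.04 to 1.36-fold of the villi, and *Atf3* was at 0.56-fold. Without *Gli1-PtgscKO* villus replicate 1, the villus library highest in *Fos*, *Fosb*, *Jun*, *Egr1* and *Dusp1*, 8 of the 10 genes had the crypts on top in CPM, against 57.2% of all genes.

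**Figure D5:**
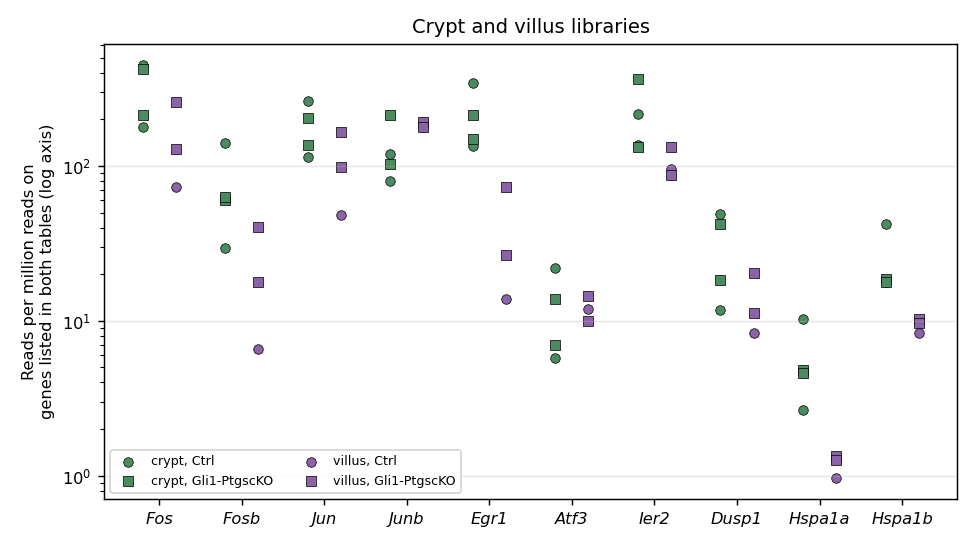
CPM over the genes listed in both tables for the 10 genes, on a log axis, with crypt libraries in green and villus libraries in purple, circles for Ctrl and squares for *Gli1-PtgscKO*. *Egr1*, *Hspa1a* and *Hspa1b* are separated by tissue, and *Junb* and *Atf3* overlap most.

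Per kilobase of the longest annotated transcript, the genes could be ordered within a tissue. In the crypts *Fos* and *Ier2* led with means of 149.8 and 139.4 CPM per kilobase, and their libraries overlapped, from 84.6 to 213.6 and from 86.6 to 240.6. *Junb* (71.3), *Jun* (55.9) and *Egr1* (46.8) followed and overlapped one another, and *Junb*, from 44.2 to 117.6, also overlapped *Fos* and *Ier2*. *Fosb* (19.4) and *Dusp1* (13.1) overlapped too, and *Fosb*, from 7.84 to 37.1, also overlapped *Jun* and *Egr1*. *Hspa1b* (8.61), *Atf3* (6.11) and *Hspa1a* (1.88) had the lowest means. *Fosb* and *Dusp1* overlapped *Hspa1b* and *Atf3*, and *Atf3* overlapped *Hspa1a*, so the order is one of means only. In the villi *Junb* had the highest mean at 103.3, with libraries from 99.0 to 106.2, followed by *Fos* at 72.6 and *Ier2* at 68.9. *Fos* ranged from 34.5 to 122.4 and overlapped *Junb*, which it exceeded in *Gli1-PtgscKO* villus replicate 1, as well as *Ier2*, from 57.2 to 86.6. *Egr1* was at 8.44, close to *Atf3* at 6.11. *Hspa1a* was again the lowest at 0.40, with its split from *Hspa1b* uncertain as above.

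The genes with the most similar pattern were found by correlating log2 CPM, centred within each tissue, with the mean of the 10 genes over the 7 libraries. That mean was 0.73 and -0.72 in the Ctrl crypts, 0.34 and -0.35 in the *Gli1-PtgscKO* crypts, -0.54 in the Ctrl villi, and 0.55 and -0.01 in the *Gli1-PtgscKO* villi. Among the 10 genes, which enter the mean themselves, *Dusp1* followed it most closely (Pearson r = 0.98) with *Fos* (0.96) and *Jun* (0.94), while *Junb* (0.55), *Ier2* (0.71) and *Atf3* (0.73) did so least. Outside the set the 5 most similar of all genes were *Rcn2*, *Mta3*, *Plk3*, *Adam15* and *Pwp1*, with r between 0.98 and 0.99. With 7 libraries of shared depth and composition such values are a description. *Plk3*, a polo-like kinase known as a growth factor-induced gene, was the only 1 of the 5 whose spread (SD 0.57 on the log2 scale) was like that of the 10 genes, with 252.1 and 78.3 normalized counts in Ctrl crypts, 179.4 and 125.2 in *Gli1-PtgscKO* crypts, and 129.7, 213.3 and 163.2 in the villi. The SD of the other 4 was 0.10 to 0.23, with *Rcn2* at 520.3 to 818.1 normalized counts in the crypts and *Mta3* at 1021 to 1226. In normalized counts these 4 were lower in both *Gli1-PtgscKO* villus libraries than in Ctrl villi. *Mta3* had 691.6 against 566.5 and 564.1, and *Rcn2* 139.0 against 132.3 and 131.4, so r describes the CPM scale only.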

How the data were processed

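RNA of crypts and villi was sequenced from Ctrl and *Gli1-PtgscKO* mice. According to the study's methods the reads were aligned to mm10 with STAR at default parameters, genes were counted and groups were compared with DESeq2. How reads were counted, with or without strand and on which annotation, is not given in the sources used here. The labels and the methods name different RNA and library kits. The deposited signal is a normalized count: counts were scaled by the authors with DESeq2 size factors, and each table was normalized separately. Columns of the authors' own fold changes, p-values and adjusted p-values were not used. Genes without an adjusted p are not listed.

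The smallest step between deposited values gave the worth of 1 read, and 100% of values came to a whole number of reads within 1e-06. Reads on listed genes leave out unlisted genes, and columns of unmapped samples were 0. In R 4.3.3, crypt genotypes were compared by the limma-trend method of limma 3.58.1 on log2(normalized count + 1) over all genes with a mean of at least 1, without a block, with Benjamini-Hochberg adjustment. Fold changes are on that scale. A gene was called at an unadjusted p under 0.01 with an absolute log2 fold change over 1. An exact permutation test of 2 against 2 libraries cannot go below 0.333 and was not used. Villi were described without a test. The fit was also run on simulated counts with known changes, with a dispersion taken from the crypt reads.

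Alternatives were edgeR 4.0.16 and DESeq2 1.42.0 on the recovered reads, library size alone, other filters and pseudocount, the replicate number as a block, correction for transcript length by a lowess curve (span 0.3), and leaving out each library. Gene positions and lengths came from GENCODE M21 on GRCm38, of the same build as mm10, for 11546 crypt and 12692 villus genes matched by identifier. Promoters came from RefSeq on GRCm38.p6. Named were all 10 genes, of each other list the 3 with the largest absolute fold change in crypts and any called, and the 5 genes most similar in pattern. Genes named outside this rule are said to be so. The 10 genes and the lists were chosen with earlier results of these data known. Adjusted p-values cover all genes tested.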

Additional observations from a re-analysis of the deposited data

Results flagged for a closer look

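The 10 genes and those named from the other lists for their crypt fold change made 21 genes listed in both tissues. For 3 of the 21, every *Gli1-PtgscKO* crypt library lay above Ctrl and every *Gli1-PtgscKO* villus library below it. The difference between tissues was not tested, and the villi have 1 distinct Ctrl library. Of the 11227 genes listed in both tissues, 12.9% had every *Gli1-PtgscKO* library on opposite sides of Ctrl in crypts and villi, in either direction. The genes from the other lists were picked for their crypt fold change, so the 3 of 21 cannot be compared directly with that share. *Cebpd*, a C/EBP transcription factor of the early response, had a log2 fold change of 0.74 in crypts and -0.85 in villi. *Fkbp4*, a co-chaperone of HSP90, had 0.34 and -0.97. Its separation in crypts was marginal, with 8195 and 8103 normalized counts in Ctrl and 12865 and 8311 in *Gli1-PtgscKO* replicates 1 and 2. *Elk1*, a ternary complex factor, had 1.00 and -0.99, with 18.4 to 47.5 normalized counts in the villi. None of the 10 immediate early and heat shock genes did so, since none was separated by genotype in the crypts.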

How the results depend on the processing

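No setting that kept all 4 crypt libraries called any of the 10 genes or of the other lists. Over all genes, 21 were called by limma-trend, 78 with the replicate block, 65 by DESeq2, 23 by edgeR and 33 with length correction and the replicate block. The replicate numbers name only 2 pairs, the deviations of same-numbered crypt libraries correlated at 0.247, and what a number marks is not given, so the block was kept as an alternative. It changed no call of the 10 genes. Leaving out 1 library gave 18 to 881 called genes, 0 to 2 of the 10 (*Ier2* and *Junb*) and 0 to 5 of the other lists, with the upper ends all without *Gli1-PtgscKO* replicate 2, where *Cebpb*, *Jund*, *Gadd45g* and *Hras* were higher and *Mrtfb* lower. *Gli1-PtgscKO* replicate 1 is then alone and assumed to vary like Ctrl.

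The direction between genotypes in crypts was not stable. *Fosb* turned to -0.37 by edgeR and DESeq2 alike and to -0.066 with library size alone, and *Jun* to -0.049, -0.048 and -0.050. Leaving out each library gave log2 fold changes of -0.49 to 0.79 for *Fos*, -1.09 to 1.10 for *Fosb*, -0.55 to 0.60 for *Jun*, -0.85 to 0.45 for *Egr1*, -1.05 to 0.81 for *Atf3*, -0.36 to 1.24 for *Ier2*, -0.71 to 1.28 for *Dusp1*, -1.02 to 0.86 for *Hspa1a* and -1.12 to 0.085 for *Hspa1b*. *Junb* stayed above 0, from 0.094 to 1.26 against 0.67 with all libraries. In villi the 2 genes past 2-fold became 4 with library size alone and 1 to 4 on leaving out a *Gli1-PtgscKO* library. The 4 genes with crypts above villi became 2 with median-of-ratios size factors and 4 to 8 on leaving out a library. The cause of these changes was not tested. With length correction the median difference between the *Gli1-PtgscKO* crypt replicates went from 0.91 to 0.63 on the log2 scale, and 5 genes over 2-fold became 0. *Hspa1a* in villi rests on 14 to 21 reads.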
